A study of Mus musculus with 52 samples.

Results

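The comparison concerns oligodendrocytes of the spinal cord and asks how much the effect of mutant SOD1 on their ribosome-bound mRNA at 11 months differed from its effect at 8 months. Its members are the 17 of 52 libraries labelled as oligodendrocyte, SOD1 G37R or non-transgenic control (CTRL), at either age, and the 11552 of 23697 listed genes whose mean was at least 1 in both tables. The G37R mice carried a SOD1 G37R transgene, a human mutation that causes amyotrophic lateral sclerosis, and the CTRL mice carried none; all groups made an EGFP-tagged ribosomal protein through which oligodendrocyte mRNA was pulled down from spinal cord, and the labels used here do not name the promoter that drives it. At 11 months, labelled early symptomatic, there were 3 G37R libraries (1 male, 2 female) and 5 CTRL libraries (2 male, 3 female). At 8 months, labelled onset, there were 4 G37R and 5 CTRL libraries, all male. Age, sex mix and deposited table therefore changed together, and the age contrast was tested only as a difference between the 2 within-table effects; levels in the 2 tables, which were normalized separately, are set side by side as a description. A further 3 libraries of 11 months (1 male, 2 female), from mice of the SOD1 G85R genotype and also labelled early symptomatic, are no members and are used only where G85R is named. Each effect is G37R minus CTRL on log2(value + 1), where the value is an FPKM-equivalent (fragments scaled to transcript length and library size, with both tables divided by the same factor). The log2(value + 1) scale understates the change of genes with low values. Nothing in the labels ties the libraries to separate animals, so p-values measure the spread between libraries, which may be technical.

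Oligodendrocytes make the myelin sheath of the central nervous system and supply the axons they wrap with lactate and other substrates. Their sheath is built from a small set of very abundant proteins (MBP, MOBP and MOG among them) and from sterols and galactolipids, and their mature state is held by transcription factors such as OLIG1, OLIG2 and NKX6-2. In mouse models of demyelination and neurodegeneration, a disease-associated oligodendrocyte state has been described in which Serpina3n and C4b, an inhibitor of serine proteases and a complement factor, are raised. A pull-down of tagged ribosomes enriches one cell type without removing the RNA of all others, and in such bulk samples fewer cells of a type and less RNA per cell cannot be told apart.

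The libraries were of oligodendrocyte character at both ages. The summed level of the 15 structural myelin genes that no library listed at 0 was 12383 to 16117 FPKM-equivalents in G37R and 17980 to 22742 in CTRL at 11 months, and 18216 to 19150 in G37R and 19009 to 21844 in CTRL at 8 months. In the 8-month controls all 17 tested members of the list were higher than in whole spinal cord, by a median of 1.94 on the log2 scale, while homeostatic astrocyte genes were lower by a median of -3.18 and pan-neuronal genes by -1.35. Correlations between libraries of a group lay between 0.962 and 0.989. Endogenous Sod1 was not called at either age, with effects of -0.23 at 11 months (adjusted p = 0.11) and -0.04 at 8 months (adjusted p = 0.93); the table has no row for the human transgene. Mbp was listed at 0 in CTRL replicate 1 of 11 months and at 12036 or more in the other 4 CTRL libraries, so it is also given without that library. G37R replicate 1 of 11 months, the male of its group, lay nearer to the controls than replicates 2 and 3 for many genes, and the counts are also given without it.

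The G37R effect was larger and touched far more genes at 11 months than at 8 months. By limma with Benjamini-Hochberg adjustment over all genes, 6332 genes (54.8%) differed between G37R and CTRL at 11 months, 3203 higher (27.7%) and 3129 lower (27.1%). At 8 months 10 genes differed (0.0866%), 9 of them higher (0.0779%) and 1 lower (0.00866%), and 862 had an unadjusted p under 0.05. The difference between the 2 effects was called for 2157 genes (18.7%), 1070 with a higher effect at 11 months (9.26%) and 1087 with a lower one (9.41%). The spread of the effects over genes, as SD, was 0.453 at 11 months and 0.159 at 8 months. Medians over all genes were -0.01 for the 11-month effect and 0.01 for the 8-month effect, both close to 0.

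Of the 6332 genes called at 11 months, 82.0% had an 8-month effect of the same sign, as had 71.9% of all tested genes. Across genes the 8-month and 11-month effects correlated with Pearson r = 0.495 and Spearman rho = 0.592 over 11552 genes, a description only, since genes are not independent and all effects at an age share its libraries. Of these 6332 genes, which were called from the same libraries, 6281 (99.2%) had the pooled sign both in the male and in the female libraries, as had 84.1% of all tested genes, with a median size of 0.374 in males (1 G37R against 2 CTRL libraries) and 0.469 in females (2 against 3).

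The counts depended on single libraries. Leaving out G37R replicate 3 of 11 months left 426 genes higher and 329 lower in the difference, leaving out replicate 2 left 459 and 469, and leaving out replicate 1 gave 1862 and 1983. Leaving out G37R replicate 1, 3 or 4 of 8 months or CTRL replicate 2 of 11 months gave 658 to 761 higher and 634 to 751 lower. Of the genes called without G37R replicate 1, 2092 were among the 2157, and of those called without replicate 3, 752 were. Males, the sex present at both ages, gave 42 higher and 33 lower when fitted alone, with 1 G37R library at 11 months that was assumed to vary like the other groups. Where a named call was lost when 1 library was left out, the number of 17 such fits that kept it is given. All 45 genes named here with such a loss in the difference lost it without G37R replicate 2 or 3 of 11 months. The counts over gene lists given later are to be read against the shares of all tested genes, 9.26% higher and 9.41% lower in the difference and 27.7% higher and 27.1% lower at 11 months.

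**Figure D1:**
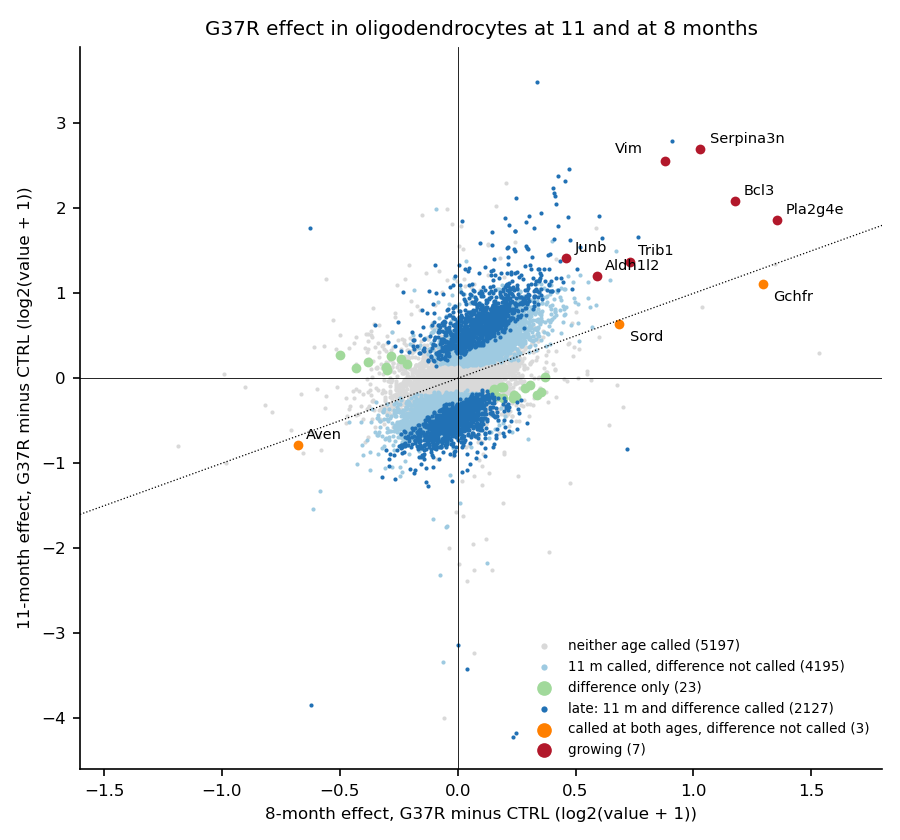
Each point is a gene, placed by its 8-month effect (x axis) and its 11-month effect (y axis), G37R minus CTRL on log2(value + 1), and coloured by time class; the dotted line marks equal effects, the axes differ in scale, and 5 genes lie outside the plotted range. The 7 growing genes lie above the line at right, and the 2127 late genes stretch along the y axis near 0 on the x axis.

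Genes were sorted by when they changed. A gene was called growing if it passed at 8 months and in the difference, with the same sign and a larger effect at 11 months; 7 genes did (0.0606%). It was called at both ages with no called difference in 3 cases (0.026%). It was late if it passed at 11 months and in the difference but not at 8 months, which 2127 genes did (18.4%), 1055 higher and 1072 lower in G37R. For 4195 genes (36.3%) the 11-month effect was called and neither the 8-month effect nor the difference, so their timing is not resolved. No gene was early only, and none receded, by limma at the adjusted threshold. At an unadjusted p under 0.05, 131 genes were early only and 78 receded, against 325 that grew. Other settings gave receding genes, 4 with array weights, 2 without a filter, 2 with a sex term and 1 without CTRL replicate 2 or 3 or G37R replicate 2 of 8 months, and males alone gave 1 early-only gene. In 23 genes (0.199%) the difference passed and neither effect did.

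The 7 growing genes were Serpina3n, Vim, Bcl3, Pla2g4e, Junb, Trib1 and Aldh1l2, all higher in G37R at both ages. Serpina3n, the serine protease inhibitor that marks reactive glia, had 335, 407 and 499 FPKM-equivalents in G37R at 11 months, against 50.1, 54.5, 70.4, 62.4 and 76.3 in CTRL. At 8 months Serpina3n had 112, 94.2, 100.2 and 82.3 FPKM-equivalents in G37R, against 44, 52.4, 44.5, 37.8 and 58.6 in CTRL. Groups did not overlap at either age. With both tables divided by the same factor, every 11-month G37R library was above every 8-month one, while the CTRL libraries of both ages lay between 37.8 and 76.3. The effect was 2.70 at 11 months and 1.03 at 8 months (adjusted p = 0.0044), a difference of 1.67 ± 0.22 (SE, adjusted p = 0.00064). Within the sexes the 11-month effect was 2.66 in males and 2.68 in females.

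Vim, the intermediate filament vimentin of astrocytes, immature glia and vascular cells, had 57.7, 97.7 and 110.3 FPKM-equivalents in G37R at 11 months, against 11.2, 12.5, 13.2, 14.7 and 17.6 in CTRL. At 8 months Vim had 21.5, 23.1, 19.95 and 17.9 FPKM-equivalents in G37R, against 11.2, 10.8, 8.6, 12.2 and 11.1 in CTRL. The G37R libraries were above all controls at each age, by 2.56 at 11 months and 0.88 at 8 months (adjusted p = 0.042), a difference of 1.68 ± 0.23 (SE, adjusted p = 0.00094). Junb, an AP-1 transcription factor, had 9.33, 10.3 and 12.6 FPKM-equivalents in G37R at 11 months, against 3.56, 3.54, 3.47, 3 and 3.34 in CTRL. At 8 months Junb had 5.73, 5.53, 5.34 and 4.7 FPKM-equivalents in G37R, against 3.64, 3.62, 3.21, 3.43 and 4.07 in CTRL, again with no overlap. Its effects were 1.41 and 0.46 (adjusted p = 0.042 at 8 months), with a difference of 0.95 ± 0.12 (SE, adjusted p = 0.00064). For both genes the 8-month call was close to the threshold: it was kept in 5 of 17 fits that left out 1 library, with adjusted p up to 0.201 for Vim and 0.23 for Junb, while both differences kept their call in all 17. With the G85R libraries of 11 months as a 5th group in the fit, the 8-month adjusted p of all growing genes but Pla2g4e was 0.729.

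Bcl3, a nuclear IkB protein that binds NF-kB subunits, was low in all groups. It had 4.06, 6.24 and 7.85 FPKM-equivalents in G37R at 11 months, against 0.372, 0.742, 0.765, 0.7 and 0.553 in CTRL. At 8 months Bcl3 had 4.77, 3.7, 2.7 and 2.75 FPKM-equivalents in G37R, against 1.01, 1.28, 1.02, 0.697 and 0.796 in CTRL. The effects were 2.08 at 11 months and 1.18 at 8 months (adjusted p = 0.0019), and the difference was 0.91 ± 0.23 (SE, adjusted p = 0.015, call kept in 16 of 17). Trib1, a pseudokinase that steers C/EBP proteins to degradation, had effects of 1.37 and 0.73 (adjusted p = 0.0088 at 8 months, that call kept in 16 of 17) and a difference of 0.64 ± 0.16 (SE, adjusted p = 0.016, call kept in 15 of 17). Its G37R values were 3.04, 5.27 and 4.48 at 11 months and 2.95, 2.42, 2.23 and 2.77 at 8 months, above every control at that age. Aldh1l2, the mitochondrial 10-formyltetrahydrofolate dehydrogenase and an ATF4 target, had 10.9, 12.5 and 15.3 FPKM-equivalents in G37R at 11 months, against 4.77, 4.58, 4.53, 5.86 and 5.28 in CTRL. At 8 months Aldh1l2 had 9.02, 8.74, 9.46 and 8.92 FPKM-equivalents in G37R, against 5.18, 6.16, 5.01, 5.52 and 6.55 in CTRL. Its effects were 1.21 and 0.59 (adjusted p = 0.012 at 8 months, that call kept in 15 of 17), with a difference of 0.61 ± 0.14 (SE, adjusted p = 0.0094).

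Pla2g4e, a calcium-dependent phospholipase of the cytosolic group, was the gene with the smallest p at 8 months. It had 3.38, 5.45 and 4.17 FPKM-equivalents in G37R at 11 months, against 0.333, 0.541, 0.321, 0.512 and 0.545 in CTRL. At 8 months Pla2g4e had 2.91, 3.35, 2.43 and 2.55 FPKM-equivalents in G37R, against 0.411, 0.335, 0.547, 0.573 and 0.561 in CTRL. In G37R it was above all controls by 1.86 at 11 months and 1.36 at 8 months (adjusted p = 3.2e-06). Every CTRL library was under 1 at both ages, so Pla2g4e reached the minimum mean of 1 through G37R and had to differ. Its difference was 0.51 ± 0.15 (SE, adjusted p = 0.033, call kept in 8 of 17), with adjusted p up to 0.116 over the fits that left out 1 library.

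For the other 3 genes called at 8 months the difference was not called. Gchfr, the feedback regulator of GTP cyclohydrolase in tetrahydrobiopterin synthesis, had 2.25, 2.07 and 2.31 FPKM-equivalents in G37R at 11 months, against 0.464, 0.595, 0.528, 0.414 and 0.451 in CTRL. At 8 months Gchfr had 3.65, 3.89, 2.23 and 3.44 FPKM-equivalents in G37R, against 1.08, 0.82, 0.876, 0.585 and 0.391 in CTRL. Its effects were 1.11 and 1.29 (adjusted p = 2.3e-05 at 8 months), and the difference was -0.19 ± 0.18 (SE, adjusted p = 0.45). The CTRL mean of Gchfr was under 1 at both ages, so it too reached the minimum mean of 1 through G37R and had to differ. Gchfr passed that minimum in 15 of the 17 fits that left out 1 library. Sord, sorbitol dehydrogenase, had effects of 0.64 and 0.69 (adjusted p = 9.2e-05 at 8 months) and a difference of -0.05 ± 0.11 (SE, adjusted p = 0.76), with G37R values of 16.4, 15.2 and 15.7 at 11 months and 17.5, 15.6, 15.4 and 14.9 at 8 months and CTRL values of 9.68, 9.93, 9.47, 9.83 and 9.98 and of 11.4, 9.24, 8.7, 9.38 and 8.77. Aven, an inhibitor of caspase activation, was the 1 gene called lower at 8 months. It had 59.6, 37.9 and 43.8 FPKM-equivalents in G37R at 11 months, against 72.1, 79.5, 86.7, 78.9 and 86.5 in CTRL. At 8 months Aven had 57.9, 47.7, 54.2 and 51.1 FPKM-equivalents in G37R, against 88.8, 90.6, 70.3, 85.3 and 90.02 in CTRL. Its effects were -0.79 and -0.68 (adjusted p = 0.015 at 8 months), with a difference of -0.11 ± 0.16 (SE, adjusted p = 0.64); the 8-month call was kept in 11 of 17 fits that left out 1 library. A p above the threshold does not show that the 2 effects were equal in these 3 genes.

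**Figure D2:**
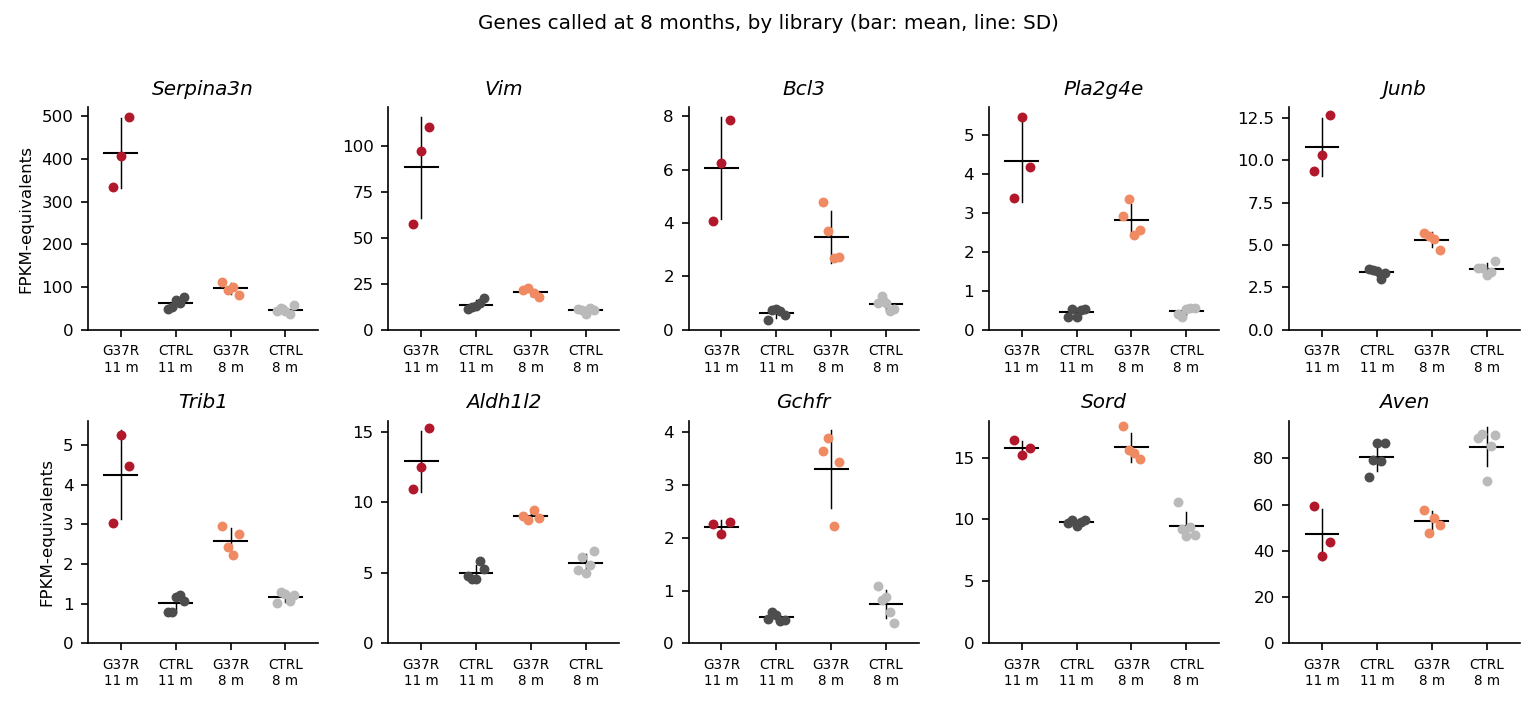
Values in FPKM-equivalents of the 10 genes called at 8 months, 1 panel per gene; points are libraries, bars are group means and vertical lines 1 SD. In the 7 growing genes the 11-month G37R mean is above the 8-month one, while Gchfr, Sord and Aven are shifted to a like extent at both ages.

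A cluster by position among these 10 genes was noticed after their values were seen. Aven (chr2:112333120-112471410 on mm9), Gchfr (chr2:118993523-118998125), Pla2g4e (chr2:119992147-120071071) and Sord (chr2:122060574-122091073) lie within 9.8 Mb. Of the 78 tested genes in that stretch, 4 were called at 8 months (5.13%), against 6 of the 11474 other genes (0.0523%). At an unadjusted p under 0.05 there were 21 of 78 (26.9%), against 841 of 11474 (7.33%), and on the rest of chromosome 2 there were 64 of 856 (7.48%). The G37R and CTRL libraries of 8 months did not overlap for 17 of the 78 genes, with 11 higher (3.57% over all genes) and 6 lower (0.866% over all genes). The size of the 11-month effect in the stretch had a median of 0.348, against 0.297 for all other genes. These figures carry no test, since the stretch was drawn around called genes. Pla2g4e and Gchfr were also tested only because G37R raised them over the minimum mean of 1, so the share called includes genes that had to differ.

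In the 3 oligodendrocyte libraries of mice with another mutation, SOD1 G85R, at 11 months, Pla2g4e stood at 0.618, 0.632 and 0.554 FPKM-equivalents and Gchfr at 0, 0.78 and 0.835. Sord stood there at 11.9, 11.4 and 10.2 and Aven at 52.9, 73.9 and 70.1. For Pla2g4e and Sord all 3 G85R libraries lay below every G37R library of that table and above every CTRL library. For Gchfr they lay below every G37R library, 2 of them above and 1 below every CTRL library, while for Aven 1 G85R library lay within the G37R range, 1 within the CTRL range and 1 between the groups.

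**Figure D3:**
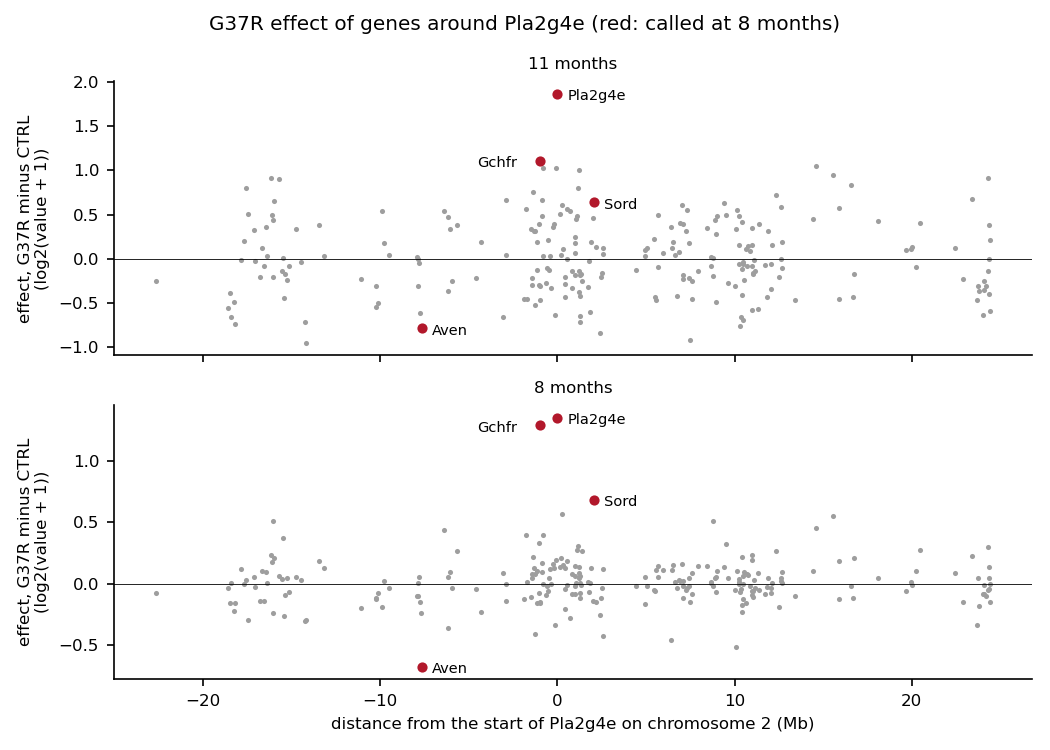
The G37R effect of each tested gene within 25 Mb of the start of Pla2g4e, at 11 months (upper panel) and 8 months (lower panel), in log2(value + 1), against distance along the chromosome; red points are the genes called at 8 months. At 8 months Pla2g4e (1.36), Gchfr (1.29), Sord (0.69) and Aven (-0.68) stand apart from most of their neighbours.

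Promoters of the growing genes are shown because these genes were raised at both ages and most at 11 months. Of the 7 genes, 5 matched a RefSeq promoter window on GRCm38.p6 by symbol. The 250 bases before the start, on the gene's own strand, were searched on both strands for the NF-kB motif, AP-1 (TGANTCA), STAT (TTCNNNGAA), C/EBP (TTGCNNAA), CRE (TGACGTCA) and the serum response element motif. Capitals mark a match, and the windows of the genes with the largest difference (Serpina3n and Vim) and of the chromosome 2 gene Pla2g4e follow.
Serpina3n (chr12:104406458-104406707, plus strand): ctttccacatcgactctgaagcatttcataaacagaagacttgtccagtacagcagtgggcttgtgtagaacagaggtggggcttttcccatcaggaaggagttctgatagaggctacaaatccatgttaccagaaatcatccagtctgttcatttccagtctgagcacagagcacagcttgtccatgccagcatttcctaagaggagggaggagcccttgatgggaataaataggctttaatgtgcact
Vim (chr2:13574061-13574310, plus strand): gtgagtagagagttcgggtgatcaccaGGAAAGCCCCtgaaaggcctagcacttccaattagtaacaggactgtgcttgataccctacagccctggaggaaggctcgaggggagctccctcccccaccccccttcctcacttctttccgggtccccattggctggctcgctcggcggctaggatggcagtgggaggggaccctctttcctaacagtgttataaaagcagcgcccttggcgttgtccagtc
Pla2g4e (chr2:120245336-120245585, minus strand): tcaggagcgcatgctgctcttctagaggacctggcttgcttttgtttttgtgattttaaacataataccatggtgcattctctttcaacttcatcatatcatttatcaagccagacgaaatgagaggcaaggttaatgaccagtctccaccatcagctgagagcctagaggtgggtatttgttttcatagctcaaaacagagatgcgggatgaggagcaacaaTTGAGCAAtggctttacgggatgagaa
The Vim window held 1 NF-kB match, from -223 to -214 on the minus strand relative to the start, and the Pla2g4e window 1 C/EBP match, from -27 to -20. None of the 6 motifs matched in the windows of Serpina3n, Bcl3 and Junb. Over all 32851 promoter windows of that length, 3.9% held the NF-kB motif, 9.56% C/EBP, 6.75% AP-1, 7.02% STAT, 1.55% CRE and 1.47% the serum response element motif.

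Late genes went in both directions. In 1469 of the 2127 (69.1%) the 8-month effect had the sign of the later one, and in 658 the opposite sign; that it was smaller follows from how the class was made. Of the called differences, the 15 highest were Lyz2, Hbb-b1, Capg, Anxa3, Lgals3, C1qa, Tagln2, Hpgd, Ctss, Ptpn6, Cd52, Nckap1l, Irf8 and the growing genes Vim and Serpina3n.

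Lyz2, lysozyme of macrophages and microglia, had 17.3, 43.2 and 61.9 FPKM-equivalents in G37R at 11 months, against 1.98, 1.48, 2.66, 2.12 and 3.63 in CTRL. At 8 months Lyz2 had 3.3, 3.01, 3.04 and 2.09 FPKM-equivalents in G37R, against 2.19, 1.95, 2.74, 1.37 and 2.07 in CTRL. All 3 G37R libraries of 11 months lay above every other library, the male lowest, while the 8-month groups overlapped. The effects were 3.49 and 0.34, with a difference of 3.16 ± 0.40 (SE, adjusted p = 0.00064); within the sexes the 11-month effect was 2.76 in males and 3.81 in females. Lgals3, the galectin of phagocytosing cells, had 12.9, 24.8 and 30.7 FPKM-equivalents in G37R at 11 months, against 1.83, 1.99, 2.67, 2.81 and 2 in CTRL. At 8 months Lgals3 had 5.8, 4.33, 3.23 and 3.99 FPKM-equivalents in G37R, against 2.34, 1.82, 1.17, 2.37 and 1.48 in CTRL. Each G37R library was above each control, with an effect of 0.91 that missed the threshold (adjusted p = 0.21). The difference was 1.88 ± 0.30 (SE, adjusted p = 0.002). Hbb-b1, a beta globin of red cells, was listed at 0 in 4 of 5 CTRL libraries of 11 months and at 6.36 in the other, against 4.59, 2.97 and 4.87 in G37R, so no fold is given; the difference was called higher (adjusted p = 0.048), and its call was kept in 2 of 17 fits.

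Complement genes changed late. Of 15 listed genes 8 passed the filter on low values, 6 were higher in the difference and none was lower, and the median difference over the 8 was 1.16, against -0.02 over all genes. C1qa, a chain of the initiator of the classical pathway, had 35.3, 57.4 and 79 FPKM-equivalents in G37R at 11 months, against 11.4, 8.86, 10.04, 13 and 16.7 in CTRL. At 8 months C1qa had 10.6, 11.7, 11.9 and 8.28 FPKM-equivalents in G37R, against 6, 9.13, 11.9, 6.31 and 11.7 in CTRL, and the groups overlapped. Its difference was 1.87 ± 0.35 (SE, adjusted p = 0.0039), that of C1qb was 1.58 ± 0.25 (SE, adjusted p = 0.0017) and that of C1qc was 1.49 ± 0.28 (SE, adjusted p = 0.0033). C4b, cleaved by the C1 complex and also made by oligodendrocytes in disease, had 42.6, 72.3 and 72.8 FPKM-equivalents in G37R at 11 months, against 14.1, 16.7, 19.9, 21.3 and 22.2 in CTRL. At 8 months C4b had 28.9, 26.2, 26.8 and 25.4 FPKM-equivalents in G37R, against 16.4, 19, 14, 10.7 and 18.4 in CTRL, above every control but not called (0.76, adjusted p = 0.23); its difference was 0.89 ± 0.26 (SE, adjusted p = 0.026, call kept in 14 of 17).

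Microglial genes were higher late. Of 17 homeostatic microglia genes 10 were tested, 6 were higher and 1, the transcription factor gene Sall1 (-0.60 ± 0.19 SE, adjusted p = 0.04, call kept in 5 of 17), was lower in the difference (median 0.96), and of 21 disease-associated microglia genes 11 were tested and 7 were higher (median 0.86). Of the tested genes, 1 of the 11 and none of the 10 had a control mean under 1. Trem2, the lipid receptor of microglia, had 4.66, 9.5 and 12.7 FPKM-equivalents in G37R at 11 months, against 1.56, 1.68, 2.11, 1.71 and 2.2 in CTRL. At 8 months Trem2 had 2.23, 1.99, 2.42 and 1.37 FPKM-equivalents in G37R, against 1.68, 1.49, 2.22, 1.41 and 1.69 in CTRL; the difference was 1.57 ± 0.27 (SE, adjusted p = 0.0028). Its adaptor Tyrobp gave 1.59 ± 0.30 (SE, adjusted p = 0.0039), the Fc receptor Fcgr3 1.44 ± 0.18 (SE, adjusted p = 0.00064), the cytoskeletal protein gene Aif1 1.23 ± 0.26 (SE, adjusted p = 0.0076) and the secreted glycoprotein gene Olfml3 1.05 ± 0.21 (SE, adjusted p = 0.0048). The summed level of all 17 homeostatic genes, none at 0, was 84.2 to 156 FPKM-equivalents in G37R and 58.1 to 73.5 in CTRL at 11 months, and 66.4 to 69.4 in G37R and 55.3 to 70.4 in CTRL at 8 months. That of the 21 disease-associated microglia genes, a list that holds genes other cells also express, overlapped, with 1653 to 2003 in G37R and 1330 to 2242 in CTRL at 11 months, and 1321 to 1489 in G37R and 1281 to 1975 in CTRL at 8 months. At 11 months, sums without overlap were also those of 12 pericyte and fibroblast markers (6.99 to 11.1 in G37R, 3.46 to 5.34 in CTRL), 11 Schwann cell markers (37.9 to 52 in G37R, 20.2 to 32.1 in CTRL), 16 interneuron markers (710.0 to 782 in G37R, 474 to 569 in CTRL) and 18 motor neuron markers (299.6 to 424 in G37R, 206 to 279.6 in CTRL), all with overlap at 8 months. The sum of 15 oligodendrocyte precursor genes did not overlap at 11 months either but was lower in G37R (192 to 221) than in CTRL (238 to 278). A sum is weighted by its most abundant members. Of the 10 tested precursor genes, 8 had a positive and 2 a negative 11-month effect, with a median of 0.31. At 8 months the precursor sum overlapped (207 to 240 in G37R, 200 to 281 in CTRL). Endothelial, ependymal and erythrocyte sums overlapped at both ages. The part that other cells' RNA has in the results was not tested.

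Reactive astrocyte genes were the list with the most early calls. Of 26 genes 10 were tested; each of those 10 was higher at 11 months, 8 were higher in the difference, and 3 (Serpina3n, Vim and Bcl3) were called at 8 months. Bcl3 had a control mean under 1 and passed the filter through G37R, so it had to differ. The median effect was 1.55 at 11 months and 0.36 at 8 months. Gfap, the filament protein of astrocytes, had 441, 726 and 765 FPKM-equivalents in G37R at 11 months, against 141, 132, 173, 183 and 209 in CTRL. At 8 months Gfap had 240.3, 207, 207 and 178 FPKM-equivalents in G37R, against 142, 133, 122, 145 and 139.5 in CTRL, with each G37R library above each control, an effect of 0.60 that missed the threshold (adjusted p = 0.41) and a difference of 1.31 ± 0.23 (SE, adjusted p = 0.0028). Hspb1, a small heat shock protein, gave a difference of 1.55 ± 0.21 (SE, adjusted p = 0.00089). Of 21 homeostatic astrocyte genes 3 were higher (14.3%) and 1 lower (4.76%) in the difference; the lower one, S100b (-0.63 ± 0.14 SE, adjusted p = 0.0088), is also made by oligodendrocytes. The higher ones included Aldoc (0.85 ± 0.17 SE, adjusted p = 0.0046) and Acsbg1 (0.82 ± 0.26 SE, adjusted p = 0.042, call kept in 6 of 17). Homeostatic astrocyte genes called higher numbered 1 to 5 over the 17 fits that left out 1 library, with 1 without CTRL 8-month replicate 5, G37R 8-month replicates 1, 3 or 4, CTRL 11-month replicates 1, 2 or 3 or G37R 11-month replicates 2 or 3 and 5 without CTRL 8-month replicate 1 or G37R 11-month replicate 1. The median over the 21 was 0.61 in the difference, with 18 positive and 3 negative, and the median effects were 0.39 at 11 months and -0.22 at 8 months. The summed level of the 21 was 5610 to 6340 in G37R and 5575 to 6031 in CTRL at 11 months, overlapping ranges, and 5436 to 5618 in G37R and 5408 to 5702 in CTRL at 8 months.

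Myelin genes moved the other way. Of 17 tested structural myelin genes, 13 were lower at 11 months, none was called at 8 months and 7 were lower in the difference (Gpm6b, Mal, Mobp, Mog, Omg, Plekhb1 and Tspan2), with medians of -0.58 at 11 months and -0.13 at 8 months. All 17 effects at 8 months were negative, as were 5226 of all 11552. By limma 1 of the 17 was lower at that age at an unadjusted p under 0.05. Mobp, a basic protein of compact myelin, had 1256, 762 and 729 FPKM-equivalents in G37R at 11 months, against 1882, 1895, 1718, 1862 and 1912 in CTRL. At 8 months Mobp had 1771, 1526, 1759 and 1526 FPKM-equivalents in G37R, against 1818, 1824, 1765, 1747 and 1848 in CTRL. The 11-month groups did not overlap, replicate 1 was the least lowered, and the difference was -0.93 ± 0.18 (SE, adjusted p = 0.0042); within the sexes the 11-month effect was -0.59 in males and -1.29 in females. Mog, the glycoprotein of the outer sheath surface, had 603, 453 and 474 FPKM-equivalents in G37R at 11 months, against 1032, 889, 907, 749 and 787 in CTRL. At 8 months Mog had 745, 757, 781 and 721 FPKM-equivalents in G37R, against 900.2, 996, 894, 745 and 876 in CTRL, and its difference was -0.55 ± 0.16 (SE, adjusted p = 0.025, call kept in 15 of 17). Tspan2, a tetraspanin of myelin, gave -0.72 ± 0.13 (SE, adjusted p = 0.0028), and Mal, a raft proteolipid, -0.77 ± 0.18 (SE, adjusted p = 0.012, call kept in 16 of 17).

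Not every myelin gene showed a called change of effect. Mag, the periaxonal adhesion protein, had an 11-month effect of -0.35 (adjusted p = 0.005) with a difference of -0.21 ± 0.13 (SE, adjusted p = 0.23), and Cnp, the phosphodiesterase of non-compact myelin, one of -0.38 (adjusted p = 0.016) with a difference of -0.30 ± 0.17 (SE, adjusted p = 0.20). Mbp had 9822, 6449 and 6711 FPKM-equivalents in G37R at 11 months, against 0, 13388, 12248, 12314 and 12036 in CTRL. At 8 months Mbp had 11268, 11327, 11924 and 11268 FPKM-equivalents in G37R, against 11447, 12758, 11148, 11745 and 12043 in CTRL. Without CTRL replicate 1 of 11 months the difference was -0.69 for Mbp (adjusted p = 0.0153). Structural myelin genes called lower numbered 2 to 9 over the 17 fits that left out 1 library, with 2 without G37R 11-month replicate 3 and 3 without G37R 11-month replicate 2.

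Genes for myelin lipids and glial junctions were also lower late. Of 17 tested, 16 were lower at 11 months, none was called at 8 months and 9 were lower in the difference, with medians of -0.54 at 11 months and -0.16 at 8 months. The 8-month effect was negative in 15 of the 17. By limma 3 were lower and none higher at that age at an unadjusted p under 0.05, against 223 and 639 of all 11552 genes. Myelin lipid and connexin genes called lower numbered 2 to 10 over the 17 fits that left out 1 library, with 2 without G37R 11-month replicates 2 or 3 and 5 without CTRL 8-month replicate 4, G37R 8-month replicate 3 or CTRL 11-month replicate 1. Gjc3, the oligodendrocyte connexin 29, had 79, 68.5 and 58.8 FPKM-equivalents in G37R at 11 months, against 133, 143, 152, 142 and 158 in CTRL. At 8 months Gjc3 had 169, 151, 188 and 181 FPKM-equivalents in G37R, against 149.6, 199.7, 155, 153 and 184 in CTRL. Its effect was -1.08 at 11 months and 0.04 at 8 months, a difference of -1.12 ± 0.15 (SE, adjusted p = 0.0007). Fa2h, which makes the hydroxylated fatty acids of myelin galactolipids, gave -0.64 ± 0.13 (SE, adjusted p = 0.005), and the ceramide synthase gene listed as Lass2 (now Cers2) -0.54 ± 0.13 (SE, adjusted p = 0.014, call kept in 15 of 17). Of 23 tested cholesterol synthesis genes 7 were lower (30.4%) and 3 higher (13%) at 11 months, a share of lower genes near that of all genes, and 1, Sc5d, was lower in the difference (-0.39 ± 0.13 SE, adjusted p = 0.044, call kept in 5 of 17). None of the 23 was called at 8 months, where 18 had a negative and 5 a positive effect. By limma 4 of them were lower and none higher at that age at an unadjusted p under 0.05. Sqle, the squalene epoxidase of that pathway, had a difference of -0.03 ± 0.11 (SE, adjusted p = 0.87). Desaturases and their regulator were late and lower, with differences of -0.85 ± 0.16 (SE, adjusted p = 0.0035) for Scd1, -0.41 ± 0.13 (SE, adjusted p = 0.033, call kept in 10 of 17) for Scd2 and -0.60 ± 0.15 (SE, adjusted p = 0.013) for Srebf1. Apoe, the lipid carrier of glia, had no called effect at either age, and its difference was -0.09 ± 0.27 (SE, adjusted p = 0.82).

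Factors that hold the oligodendrocyte state were lower late. Of 12 tested lineage factors, 6 were lower in the difference (Nkx6-2, Olig1, Olig2, Sox8, Zfp191 and Zfp488) and 2, the inhibitory helix-loop-helix genes Id2 (0.55 ± 0.17 SE, adjusted p = 0.035, call kept in 8 of 17) and Id4 (0.54 ± 0.15 SE, adjusted p = 0.024, call kept in 15 of 17), were higher. Lineage factors called lower numbered 2 to 6 over the 17 fits that left out 1 library, with 2 without G37R 11-month replicate 3 and 3 without CTRL 8-month replicates 3 or 4, G37R 8-month replicates 1 or 2, CTRL 11-month replicates 1, 2 or 3 or G37R 11-month replicate 2. The median effect was -0.46 at 11 months and 0.06 at 8 months. Olig1 had 718, 457 and 454 FPKM-equivalents in G37R at 11 months, against 993, 926, 864, 878 and 835 in CTRL. At 8 months Olig1 had 1025, 1067, 1133 and 924 FPKM-equivalents in G37R, against 1079, 1139, 1067, 1002 and 972 in CTRL, and its difference was -0.74 ± 0.17 (SE, adjusted p = 0.011). Olig2 gave -0.60 ± 0.20 (SE, adjusted p = 0.048, call kept in 3 of 17) and Zfp488 -0.47 ± 0.12 (SE, adjusted p = 0.014, call kept in 16 of 17). In the difference, precursor and axon-glia adhesion genes were lower about as often as all genes. At 11 months 9 of 20 tested axon-glia adhesion genes were lower (45%) and 5 higher (25%). Of 10 tested precursor genes 2 were lower (20%) and 3 higher (30%) at that age. Of 10 tested precursor genes, 1 (10%) was lower in the difference, Bcas1 (-0.50 ± 0.15 SE, adjusted p = 0.03, call kept in 9 of 17), which marks premyelinating cells; Neu4 and Enpp6 had differences of 0.48 ± 0.18 (SE, adjusted p = 0.072) and -0.33 ± 0.14 (SE, adjusted p = 0.089). Of 20 tested axon-glia adhesion genes 2 (10%) were lower in the difference, Anln (-0.77 ± 0.14 SE, adjusted p = 0.0029) and Sept8 (-0.37 ± 0.12 SE, adjusted p = 0.041, call kept in 5 of 17), both of the septin scaffold of myelin. Axon-glia adhesion genes called lower numbered 1 to 6 over the 17 fits that left out 1 library, with 1 without CTRL 8-month replicates 3, 4 or 5, G37R 8-month replicates 1, 2, 3 or 4, CTRL 11-month replicates 1, 2 or 3 or G37R 11-month replicates 2 or 3, 4 without CTRL 11-month replicate 4 and 6 without G37R 11-month replicate 1. Grm3, a metabotropic glutamate receptor, was the 1 called member of 13 tested glutamate receptors and had 21.2, 22.8 and 20.8 FPKM-equivalents in G37R at 11 months, against 35.6, 37.8, 35.9, 37.9 and 34.7 in CTRL. At 8 months Grm3 had 33, 35.9, 38.6 and 34.7 FPKM-equivalents in G37R, against 37.6, 39.8, 38.6, 30.8 and 43.9 in CTRL, and the difference was -0.63 ± 0.12 (SE, adjusted p = 0.0036).

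The row of the microRNA locus Mir219-2 was called lower in the difference. MiR-219 is an oligodendrocyte microRNA that, in mice, lowers factors that keep precursors from maturing. The files place the row at chr2:29701150-29701247 on mm9, and RefSeq lists the locus as Mir219a-2, with the mature mmu-miR-219a-5p at chr2:29845689-29845709 on GRCm38.p6, minus strand, whose seed (bases 2 to 8) is in capitals.
mmu-miR-219a-5p: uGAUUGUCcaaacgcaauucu
Poly(A) libraries do not hold mature microRNA, so the row counts other reads over the locus. Which transcript these reads came from was not tested. The row had 0, 9.02 and 21.5 FPKM-equivalents in G37R at 11 months, against 124, 201, 128, 57.5 and 96.3 in CTRL. At 8 months it had 244, 149, 286 and 180.0 FPKM-equivalents in G37R, against 168, 488, 149, 134 and 105 in CTRL. The 11-month groups did not overlap and the 8-month groups did; the difference was called (adjusted p = 0.016), and since G37R replicate 1 is listed at 0 no fold is given. Celf4, a neuronal RNA-binding protein gene, and Mir1199 were listed at 0 in all 3 G37R libraries of 11 months, and Mbnl1, a splicing factor gene, in 2 of them (25.2 in the other, against 27.5 to 32.5 in CTRL). A value listed at 0 can be a failed estimate, and no fold is given for these.

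Glycolytic genes were higher late. Of 16 tested glycolytic genes, 11 were higher at 11 months, none was called at 8 months and 10 were higher in the difference (median 0.52). At 8 months 5 of the 16 were higher and 1 lower at an unadjusted p under 0.05 by limma, against 639 and 223 of all 11552 genes. Glycolysis genes called higher numbered 3 to 11 over the 17 fits that left out 1 library, with 3 without G37R 11-month replicate 2, 4 without G37R 11-month replicate 3 and 6 without G37R 8-month replicate 3. Aldoc gave 1.10 at 11 months, Pfkl a difference of 0.83 ± 0.19 (SE, adjusted p = 0.011) and Tpi1 one of 0.48 ± 0.11 (SE, adjusted p = 0.01). Ldha, which makes lactate from pyruvate, had 72.1, 104 and 112 FPKM-equivalents in G37R at 11 months, against 28, 29.2, 33, 37.1 and 36.7 in CTRL. At 8 months Ldha had 39, 39.6, 38.4 and 35.5 FPKM-equivalents in G37R, against 29.5, 29.5, 33.7, 32.4 and 35.4 in CTRL, with no overlap but no call. The difference was 1.26 ± 0.17 (SE, adjusted p = 0.0007). Ldhb gave 0.55 ± 0.11 (SE, adjusted p = 0.0042). Slc16a1, the lactate exporter MCT1 of oligodendrocytes, had effects of 0.03 at 11 months (adjusted p = 0.85) and -0.08 at 8 months (adjusted p = 0.84), with a difference of 0.10 ± 0.15 (SE, adjusted p = 0.64). Respiratory chain genes went both ways: of 32 tested, 10 were higher (31.2%, near the share of all genes) and 13 lower (40.6%) at 11 months, and 5 were higher in the difference (15.6%), among them Sdha (0.56 ± 0.14 SE, adjusted p = 0.017, call kept in 15 of 17), Atp5b (0.51 ± 0.14 SE, adjusted p = 0.019, call kept in 15 of 17) and Uqcrc1 (0.49 ± 0.15 SE, adjusted p = 0.034, call kept in 8 of 17). Respiratory chain genes called higher numbered 0 to 10 over the 17 fits that left out 1 library, with 0 without G37R 11-month replicates 2 or 3, 2 without CTRL 8-month replicate 5, G37R 8-month replicates 1, 3 or 4 or CTRL 11-month replicates 1, 2 or 3 and 10 without G37R 11-month replicate 1. Respiratory chain genes called lower numbered 0 to 9 over the 17 fits that left out 1 library, with 2 without CTRL 8-month replicate 1, 4 without CTRL 11-month replicate 4 and 9 without G37R 11-month replicate 1. The difference between glycolytic and respiratory genes itself was not tested.

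Neuronal genes were also higher at 11 months. Of 20 tested pan-neuronal genes, 17 were higher and 2 lower at 11 months, none was called at 8 months, and 10 were higher and 2 lower (Celf4, listed at 0 in G37R, and Elavl3, -0.37 ± 0.12 SE, adjusted p = 0.046, call kept in 4 of 17) in the difference (median 0.45). At 8 months 7 of the 20 were higher and none lower at an unadjusted p under 0.05 by limma. Pan-neuronal genes called higher numbered 6 to 11 over the 17 fits that left out 1 library, with 6 without G37R 11-month replicates 2 or 3. Snap25, a synaptic fusion protein, had 2244, 2526 and 3090.5 FPKM-equivalents in G37R at 11 months, against 1414, 1284, 1578, 1525 and 1519 in CTRL. At 8 months Snap25 had 1210.2, 1240.0, 996 and 1168 FPKM-equivalents in G37R, against 1353, 972, 1222, 1252 and 1067 in CTRL, and the difference was 0.85 ± 0.17 (SE, adjusted p = 0.0046). The summed level of the 20 genes was 8728 to 9856 in G37R and 5260 to 6424 in CTRL at 11 months, and 5245 to 6225 in G37R and 4706 to 5521 in CTRL at 8 months, with Celf4 the 1 gene at 0 in G37R at 11 months. Of 15 tested motor neuron genes 11 were higher at 11 months and 5 in the difference, among them Prph (0.71 ± 0.16 SE, adjusted p = 0.01). Another of the 5, Hspb8, also stands on the heat shock list. Calcb and Chodl, also among the 5, had no called 11-month effect. Motor neuron genes called higher numbered 3 to 8 over the 17 fits that left out 1 library, with 3 without CTRL 8-month replicate 5, G37R 8-month replicates 1 or 4, CTRL 11-month replicates 1 or 2 or G37R 11-month replicates 2 or 3 and 8 without G37R 11-month replicate 1. Eno2 stands on both the glycolytic and the pan-neuronal list and Aldoc on the astrocyte list too, and the part of neuronal RNA in the glycolysis and respiratory results was not tested.

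Some genes of the stress pathways changed late. Of 23 tested genes of the PERK and ATF4 response, which slows protein synthesis and raises amino acid enzymes, 5 were higher (21.7%: Aldh1l2, Asns, Chac1, Sars and Wars) and 3 lower (13%: Phgdh, Psat1 and Psph) in the difference. PERK and ATF4 genes called higher numbered 3 to 7 over the 17 fits that left out 1 library, with 3 without G37R 11-month replicate 3. PERK and ATF4 genes called lower numbered 1 to 4 over the 17 fits that left out 1 library, with 1 without G37R 11-month replicate 3. Aldh1l2 was the 1 called at 8 months, Wars gave 0.68 ± 0.16 (SE, adjusted p = 0.011) and Psat1 -0.57 ± 0.11 (SE, adjusted p = 0.0036). Of 25 tested endoplasmic reticulum chaperones and degradation factors none differed in the difference, by limma at the adjusted or at an unadjusted p under 0.05, and 5 were lower at 11 months (20%). Of 17 tested cytosolic heat shock genes 3 were higher in the difference (17.6%), Hspb1, Hspb8 (0.73 ± 0.16 SE, adjusted p = 0.0076) and Hsph1 (0.57 ± 0.18 SE, adjusted p = 0.043, call kept in 6 of 17). Of 21 tested NRF2 targets and metallothioneins, 3 were higher (14.3%): Hmox1, the heme oxygenase (0.75 ± 0.11 SE, adjusted p = 0.0013), Prdx6 (0.64 ± 0.11 SE, adjusted p = 0.0024) and Gsta4 (0.47 ± 0.12 SE, adjusted p = 0.013). Of 36 tested cytosolic ribosomal protein genes 16 were lower at 11 months and none was called in the difference (4 lower at an unadjusted p under 0.05 by limma, and 6 called without G37R replicate 1 of 11 months). None of the 36 was called at 8 months, where all 36 effects were negative, with a median of -0.12.

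Many interferon and antigen presentation genes, and a smaller share of lysosome genes, were higher late. Of 15 tested interferon-stimulated genes 8 were higher in the difference, among them Oasl2 (0.93 ± 0.17 SE, adjusted p = 0.0032), Irf9 (0.75 ± 0.17 SE, adjusted p = 0.0088) and Lgals3bp (1.12 ± 0.26 SE, adjusted p = 0.0099), and 2 of the 15 had a control mean under 1. At 8 months none of the 15 was called, while 6 were higher and none lower at an unadjusted p under 0.05 by limma. Interferon-stimulated genes called higher numbered 3 to 8 over the 17 fits that left out 1 library, with 3 without G37R 11-month replicate 3 and 5 without G37R 11-month replicate 2. Of 9 tested antigen presentation genes 5 were higher, and 1 of the 9 had a control mean under 1. Antigen presentation genes called higher numbered 2 to 5 over the 17 fits that left out 1 library, with 2 without G37R 11-month replicate 3. Psmb8, an immunoproteasome subunit, had 6.9, 9.91 and 12 FPKM-equivalents in G37R at 11 months, against 1.35, 2.19, 1.47, 1.91 and 2.14 in CTRL. At 8 months Psmb8 had 3.84, 3.15, 2.71 and 2.09 FPKM-equivalents in G37R, against 2.13, 1.75, 1.43, 2.16 and 1.67 in CTRL, and the difference was 1.43 ± 0.22 (SE, adjusted p = 0.0015). The class I genes H2-D1 and H2-K1 gave 0.53 ± 0.12 (SE, adjusted p = 0.0091) and 0.65 ± 0.16 (SE, adjusted p = 0.014, call kept in 16 of 17); H2 genes are near-identical copies, so their reads may be split between them. Of 24 tested lysosome genes 8 were higher (33.3%) and 4 lower (16.7%) at 11 months, with a median difference of 0.11, and 6 were higher in the difference (25%), among them the cathepsin genes Ctss (1.83 ± 0.33 SE, adjusted p = 0.003), which microglia make in large amounts, and Ctsd (0.86 ± 0.18 SE, adjusted p = 0.0061). Lysosome genes called higher numbered 2 to 8 over the 17 fits that left out 1 library, with 2 without G37R 11-month replicates 2 or 3 and 3 without G37R 8-month replicates 1 or 4. Of 20 tested genes described for disease-associated oligodendrocytes, 10 were higher in the difference and 1 had a control mean under 1; of the 10, Snx10, a sorting nexin, gave 0.62 ± 0.11 (SE, adjusted p = 0.0027). Disease-associated oligodendrocyte genes called higher numbered 6 to 10 over the 17 fits that left out 1 library, with 6 without G37R 11-month replicate 3.

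Of 17 tested S100, annexin and galectin genes 8 were higher and 1, S100b, lower in the difference. S100, annexin and galectin genes called higher numbered 4 to 9 over the 17 fits that left out 1 library, with 4 without G37R 11-month replicate 3 and 5 without G37R 11-month replicate 2. Anxa3, a calcium-dependent membrane binding protein, had 7.77, 15.1 and 17.5 FPKM-equivalents in G37R at 11 months, against 1.09, 1.49, 2.36, 1.57 and 1.84 in CTRL. At 8 months Anxa3 had 2.97, 2.79, 2.69 and 3.19 FPKM-equivalents in G37R, against 1.56, 2.14, 1.92, 2.22 and 1.74 in CTRL, with no overlap but no call. Its difference was 1.96 ± 0.25 (SE, adjusted p = 0.00064). Anxa2 gave 1.13 ± 0.20 (SE, adjusted p = 0.0028). Of 16 tested immediate early and AP-1 genes 4 were higher and 2 lower: besides Junb, Fos (1.16 ± 0.33 SE, adjusted p = 0.024, call kept in 15 of 17) and Egr1 (1.10 ± 0.29 SE, adjusted p = 0.019) were higher, and in both the male and the female libraries the 11-month effect was positive (0.90 in males and 2.07 in females for Fos). Immediate early and AP-1 genes called higher numbered 2 to 4 over the 17 fits that left out 1 library, with 2 without G37R 11-month replicates 2 or 3. Immediate early and AP-1 genes called lower numbered 0 to 2 over the 17 fits that left out 1 library, with 0 without CTRL 8-month replicate 4, G37R 8-month replicate 1, CTRL 11-month replicate 2 or G37R 11-month replicates 2 or 3 and 1 without CTRL 8-month replicates 1 or 3, G37R 8-month replicates 2, 3 or 4 or CTRL 11-month replicates 1, 3 or 5.

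**Figure D4:**
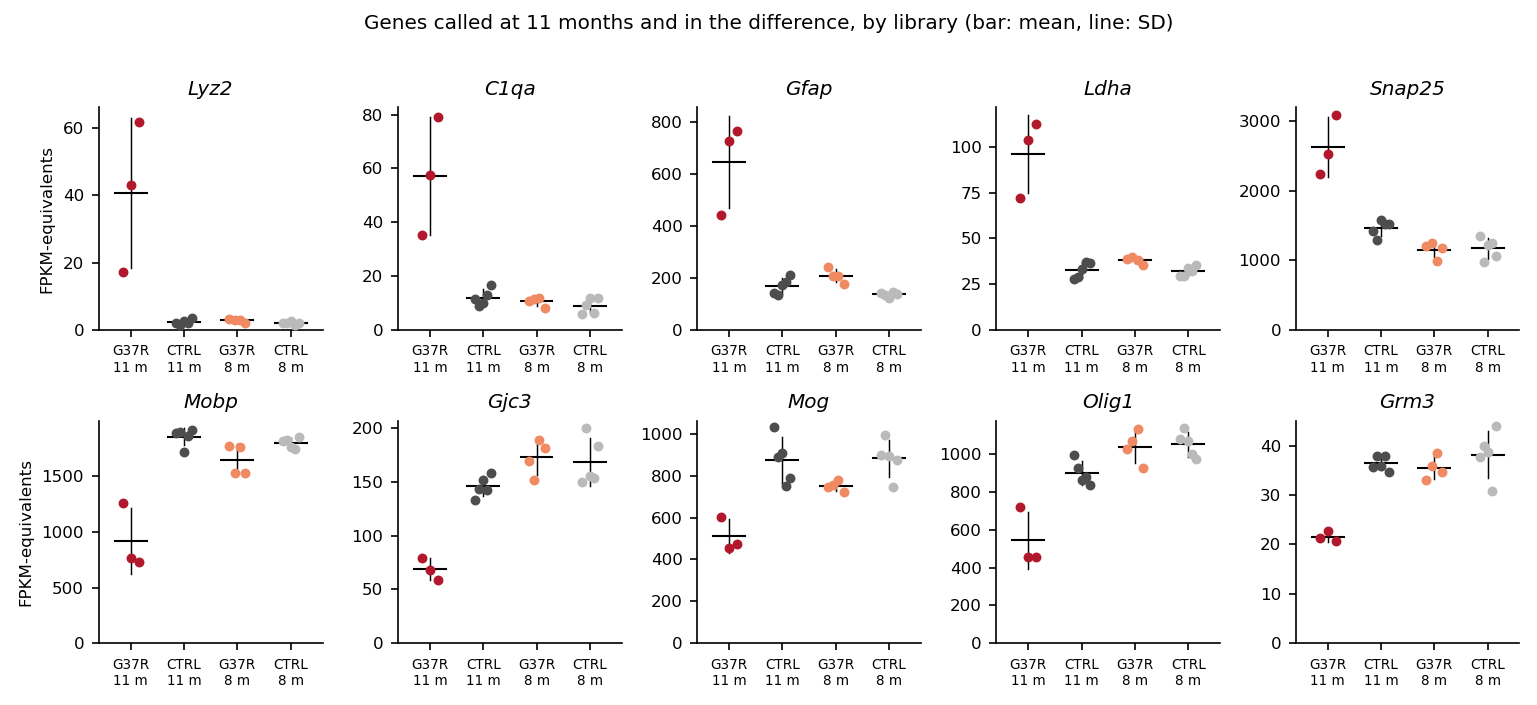
Values in FPKM-equivalents of 10 late genes, 1 panel per gene; points are libraries, bars are group means and vertical lines 1 SD. Lyz2, C1qa, Gfap, Ldha and Snap25 (upper row) are raised and Mobp, Gjc3, Mog, Olig1 and Grm3 (lower row) lowered in the 11-month G37R libraries relative to CTRL, with smaller or no separation at 8 months.

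Beside the highest stand the lowest differences, apart from the rows at 0. They were 1700120C14Rik, Meg3, 1500015L24Rik, Rnf141, Gjc3, A230001M10Rik, Nde1, 1700018L02Rik, Bdkrb2, 9330117O12 and Zcchc24. Rnf141, a RING finger protein gene, had 21.8, 24.5 and 17 FPKM-equivalents in G37R at 11 months, against 40.4, 50.3, 41.7, 52 and 47.2 in CTRL. At 8 months Rnf141 had 68, 70.3, 69.8 and 75.1 FPKM-equivalents in G37R, against 60.2, 79.3, 60.2, 84.7 and 68 in CTRL, and the difference was -1.12 ± 0.17 (SE, adjusted p = 0.0013). The row 1700120C14Rik had effects of opposite sign at the 2 ages, lower in G37R at 11 months (-0.83) and, short of the threshold, higher at 8 months (0.72, adjusted p = 0.18), with a difference of -1.55 ± 0.23 (SE, adjusted p = 0.0013). Meg3, a long noncoding RNA, gave -1.18 ± 0.39 (SE, adjusted p = 0.047, call kept in 5 of 17). For called differences named without an error, the number of the 17 fits that kept the call was 2 fits for Hbb-b1, 3 for Omg, 4 for Sox8, 5 for Mbnl1, 6 for Asns, 8 for Nkx6-2, 14 for 1500015L24Rik and Gpm6b, 15 for Plekhb1, Psph and Sars and 16 for 1700018L02Rik, Zcchc24, Eno2 and Phgdh.

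Among the 23 genes with a called difference and no called effect, the sign at 8 months was opposite to that at 11 months for the 6 with the largest differences. That follows largely from how the class was made. Calcb, a calcitonin gene-related peptide made by motor neurons, had effects of 0.27 and -0.50 and a difference of 0.77 ± 0.18 (SE, adjusted p = 0.01). Plat, tissue plasminogen activator, gave 0.57 ± 0.18 (SE, adjusted p = 0.039, call kept in 7 of 17), Sqrdl 0.55 ± 0.19 (SE, adjusted p = 0.049, call kept in 2 of 17), Chodl 0.55 ± 0.17 (SE, adjusted p = 0.033, call kept in 10 of 17), Dusp11 -0.53 ± 0.18 (SE, adjusted p = 0.045, call kept in 5 of 17) and Ccdc89 -0.52 ± 0.17 (SE, adjusted p = 0.039, call kept in 5 of 17).

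**Figure D5:**
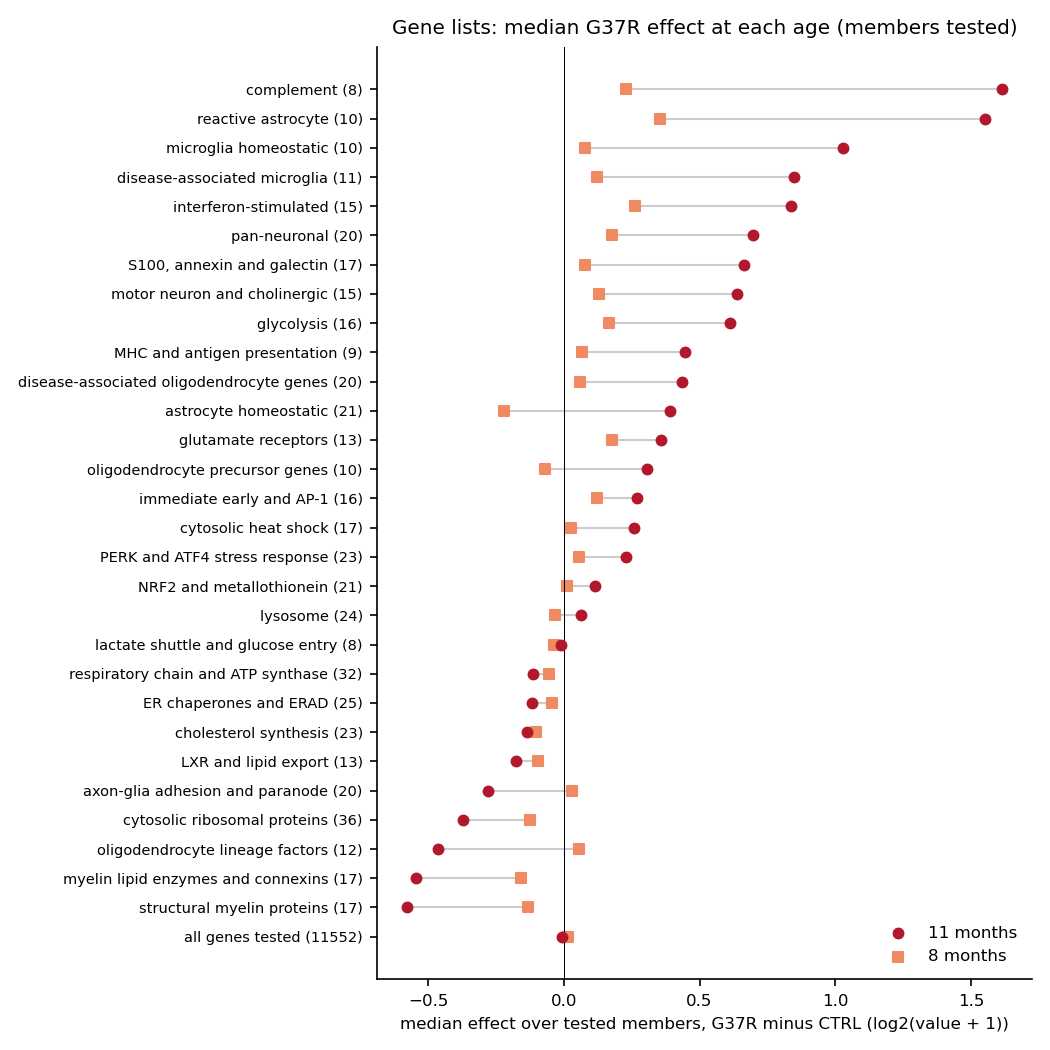
For each gene list, with the number of members tested in brackets, the median effect over its tested members, G37R minus CTRL in log2(value + 1), at 11 months (circles) and 8 months (squares); the last row gives all genes. Complement (1.62 at 11 months, 0.23 at 8 months) and reactive astrocyte genes (1.55 and 0.36) lie at the high end and structural myelin genes (-0.58 and -0.13) at the low end.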

How the data were processed

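Ribosome-bound poly(A) RNA of EGFP-RPL10A oligodendrocytes was sequenced (50 nt single reads per the labels). TopHat2 2.0.8b, Cufflinks and Cuffdiff with mm9 are named, per the submitters' processing notes. The authors deposited the 8-month spinal cord and both oligodendrocyte tables as a signal, an FPKM on a higher scale, and the 11-month spinal cord table as FPKM per the file headers and values. The signal was divided by 16774, the median ratio of 8-month to 11-month spinal cord values over 13810 genes of at least 1 FPKM. This assumes that whole cord did not shift with age. The factor touches the size of effects only through the pseudocount. It also sets the levels given and which genes reach the minimum mean of 1. Of the 6 whole-cord libraries of 11 months, 2 went against their labels: the reactive-glia genes Serpina3n and Vim were at 54.5 and 78.4 FPKM in G37R replicate 2 and at 359 and 283 in CTRL replicate 1, against 206 to 297 in the other G37R and 53.1 to 77.7 in the other CTRL libraries. Of that table the text uses only the mean over all libraries, for this factor. Large values of the 8-month oligodendrocyte table were rounded in the file, so that libraries can tie. The depth in reads is unknown, so no interval on counts is given, and 2 lines of each file were empty. Library sums ran from 491470 to 583421 at 11 months and from 648382 to 718373 at 8 months. The tables also differed in make-up. The same row was the largest in every 8-month library and held 9.92% to 16.1% of the sum. At 11 months the largest row of a G37R or CTRL library held 1.71% to 2.33%.

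Genes with a mean of at least 1 in both tables (11552) were fitted on log2(value + 1) with limma 3.58.1 in R 4.3.3, 4 groups of 17 libraries (13 residual degrees of freedom), with trend and robust moderation and Benjamini-Hochberg adjustment over all genes at 0.05. The difference is (G37R - CTRL at 11 months) - (G37R - CTRL at 8 months). On simulated data the fit was checked for recovery of known differences. Genes named are the 15 highest and 15 lowest called differences, up to 6 per time class, for each list the 2 to 4 members with the smallest p, and members the list is known for; others named were chosen after their values were seen, and some genes that the rule would name are not reported here. Members, lists and rules were chosen with earlier results of these data known. Alternatives concerned pseudocount, filter, scaling, model, sex and each library.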

Additional observations from a re-analysis of the deposited data

Results flagged for a closer look

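The G37R effect differed between 11 and 8 months, by the test of the difference itself, for 1070 genes with a higher and 1087 with a lower effect at 11 months. It also differed for 114 of the 126 genes named in the text and tested. Many of the 126 were named because their difference was called or had a small p, so that share follows from the choice. Each value below is the 11-month effect minus the 8-month effect in log2(value + 1), with an adjusted p under 0.05 by limma over all genes, except for genes that a library lists at 0. For these no difference is given, and the adjusted p was 0.048 for Hbb-b1, 0.016 for Mir219-2, 2.4e-12 for Celf4, 0.037 for Mbnl1 and 0.0028 for Mir1199. The effect was more positive at 11 months, most of all, for Lyz2 (3.16), Capg (1.98), Anxa3 (1.96), Lgals3 (1.88), C1qa (1.87), Tagln2 (1.87), Hpgd (1.84), Ctss (1.83), Ptpn6 (1.78), Cd52 (1.73), Nckap1l (1.69) and Vim (1.68). Smaller positive differences were those of Serpina3n (1.67), Irf8 (1.63), Tyrobp (1.59), C1qb (1.58), Trem2 (1.57), Hspb1 (1.55), C1qc (1.49), Fcgr3 (1.44), Psmb8 (1.43), Gfap (1.31), Ldha (1.26) and Aif1 (1.23). Next in size came Fos (1.16), Anxa2 (1.13), Lgals3bp (1.12), Egr1 (1.10), Olfml3 (1.05), Junb (0.95), Oasl2 (0.93), Bcl3 (0.91), C4b (0.89), Ctsd (0.86), Aldoc (0.85) and Snap25 (0.85). Then followed Pfkl (0.83), Acsbg1 (0.82), Asns (0.78), Calcb (0.77), Irf9 (0.75), Hmox1 (0.75), Hspb8 (0.73), Prph (0.71), Wars (0.68), H2-K1 (0.65), Trib1 (0.64) and Prdx6 (0.64). Below these lay Chac1 (0.63), Snx10 (0.62), Eno2 (0.62), Aldh1l2 (0.61), Plat (0.57), Hsph1 (0.57), Sdha (0.56), Chodl (0.55), Sqrdl (0.55), Ldhb (0.55), Id2 (0.55) and Id4 (0.54). The positive differences closest to 0 were those of H2-D1 (0.53), Atp5b (0.51), Pla2g4e (0.51), Uqcrc1 (0.49), Tpi1 (0.48), Gsta4 (0.47) and Sars (0.39). The effect was more negative at 11 months, most of all, for 1700120C14Rik (-1.55), Meg3 (-1.18), 1500015L24Rik (-1.14), Rnf141 (-1.12), Gjc3 (-1.12), A230001M10Rik (-1.09), Nde1 (-1.06), 1700018L02Rik (-1.04), Bdkrb2 (-1.02), 9330117O12 (-0.96) and Zcchc24 (-0.94). Smaller negative differences were those of Mobp (-0.93), Scd1 (-0.85), Mal (-0.77), Anln (-0.77), Gpm6b (-0.75), Olig1 (-0.74), Tspan2 (-0.72), Fa2h (-0.64), S100b (-0.63), Grm3 (-0.63) and Nkx6-2 (-0.61). Next came Srebf1 (-0.60), Olig2 (-0.60), Sall1 (-0.60), Plekhb1 (-0.58), Psat1 (-0.57), Mog (-0.55), Lass2 (-0.54), Dusp11 (-0.53), Ccdc89 (-0.52), Psph (-0.51) and Bcas1 (-0.50). The negative differences closest to 0 were those of Zfp191 (-0.48), Zfp488 (-0.47), Sox8 (-0.46), Phgdh (-0.43), Omg (-0.42), Scd2 (-0.41), Sc5d (-0.39), Sept8 (-0.37) and Elavl3 (-0.37).

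Single libraries stood far from the rest of their group for 18 of 378 groups of 4 or 5 libraries, where chance gives about 1 in 20, and their values are in FPKM-equivalents. In CTRL at 11 months these were Hbb-b1 in replicate 1 (highest, 6.36), Mbnl1 in replicate 4 (lowest, 27.5), Mobp in replicate 3 (lowest, 1718), Mbp in replicate 1 (lowest, 0) and Sqle in replicate 4 (lowest, 26.1). In G37R at 8 months they were A230001M10Rik in replicate 4 (highest, 60.2), Snx10 in replicate 2 (highest, 27.1), Olfml3 in replicate 2 (highest, 1.72), C1qc in replicate 4 (lowest, 4.22), Egr1 in replicate 2 (highest, 5.14), Mbp in replicate 3 (highest, 11924) and Gpm6b in replicate 3 (highest, 419). The CTRL libraries of 8 months gave Mir219-2 in replicate 2 (highest, 488), Sord in replicate 1 (highest, 11.4), Aven in replicate 3 (lowest, 70.3), Wars in replicate 3 (highest, 69.2), Hspb8 in replicate 1 (highest, 17) and Phgdh in replicate 1 (highest, 138).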

How the results depend on the processing

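Without CTRL 11-month replicate 1, where Mbp is listed at 0, its difference was -0.69, the low end of a range that reached 2.742 when another library was left out. Females only at 11 months gave -0.84, and leaving out both replicates 1 of 11 months gave -0.88 (both chosen after seeing the data). Over fits that left out 1 library, the difference was called higher for 426 to 1862 genes and lower for 329 to 1983, and the 11-month effect higher for 2333 to 3481 and lower for 2140 to 3377. The 8-month effect was called for 6 to 13 genes, with 3 to 9 growing, 2 to 7 called at both ages and 747 to 3798 late, and r ran from 0.385 to 0.569.

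Pearson r across genes was 0.442 with a pseudocount of 0.1, 0.446 with quantile normalization, 0.579 with array weights, 0.4 in males only, 0.55 with a replicate block and 0.575 without genes that had a library near 0. Genes called at 8 months numbered 16 without a filter, 4 with a minimum mean of 5, 2 with the G85R libraries, 34 with array weights, 28 with a sex term, 16 in males, 5 with the replicate block and 18 with females only at 11 months. Growing genes numbered 2 with the minimum of 5, 4 with quantile normalization, 1 with G85R, 23 with array weights, 16 with a sex term, 4 in males, 3 with the block and 12 with females. Genes called at both ages numbered 7 without a filter, 6 with quantile normalization, 1 with G85R, 6 with table weights, 7 with array weights, 10 with a sex term, 11 in males, 6 with females and 5 without both replicates 1. The difference was higher for 702 genes with the minimum of 5, 2889 with array weights and 42 in males, and lower for 3233 with array weights, 33 in males, 2028 with the block and 1749 without both replicates 1. The 11-month effect was higher for 2054 with the minimum of 5 and 1090 in males, and lower for 624 in males. Late genes numbered 6015 with array weights, 71 in males, 3558 with the block and 3284 without both replicates 1.

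Whether replicate numbers pair the samples was not settled, and the main fit treated them as unpaired. Deviations of same-numbered libraries correlated at 0.354, -0.136 and -0.011 at 11 months and 0.136, 0.054, 0.250 and 0.337 at 8 months, and 3 of 7 libraries correlated best with their own number. With the replicate block the difference was called higher for 1578 genes and lower for 2028. The causes of these changes were not tested. Age, sex mix and table changed together, library depth is unknown, and all 11-month effects rest on 3 G37R libraries, of which 1 is male.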
